A study of Mus musculus with 8 samples.

Results

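The members described here were 9 mouse genes chosen by name, namely Hspa9, which encodes mitochondrial HSP70 (mtHsp70), its exchange factors Grpel1 and Grpel2, its J-domain partners Dnaja3 and Hscb, and the mitochondrial chaperones Hspd1, Hspe1, Trap1 and Clpb. All 9 were found by symbol among the 14012 genes counted in the quadriceps femoris (QF), a large thigh muscle. The comparison asked how the transcripts of the mtHsp70 system stood once its exchange factor was deleted in muscle fibres. RNA came from 4 Grpel1skm-/- mice and 4 control mice, with 1 library per mouse. Grpel1skm-/- mice carried a floxed Grpel1 allele and HSA-Cre-ERT2, a Cre recombinase driven by the human skeletal muscle actin promoter and switched on by tamoxifen, so that the gene was deleted in muscle fibres but not in the other cells of the muscle. The controls were labelled Grpel1 flox/flox, so both groups carried the floxed allele. Tamoxifen in corn oil was injected on 5 consecutive days from 5 weeks of age in male mice. The age at which these 8 muscles were taken, and whether the 4 controls received tamoxifen or carried Cre, are not given for the libraries, and any effect of either cannot be told apart from that of the deletion.

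Most matrix proteins are made in the cytosol and enter the mitochondrion through the TIM23 channel, where mtHsp70 binds the incoming chain and pulls it into the matrix at the cost of ATP. J-domain proteins make mtHsp70 hydrolyse ATP and so grip its client, and an exchange factor of the GrpE family, Grpel1 or Grpel2 in mammals, removes the ADP so that the client is let go. Imported proteins are then folded by mtHsp70 itself or in the closed barrel of the chaperonin Hspd1 and its lid Hspe1, and skeletal muscle, rich in mitochondria, depends on this traffic.

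Of the 9 members, Hspa9, Clpb, Hspe1, Dnaja3 and Grpel2 were increased in knockout muscle, Trap1 was decreased (but not when libraries were scaled by their totals alone, which placed it higher), and Hspd1, Hscb and Grpel1 did not pass the test. Hspa9 showed the largest change of the 9, at 2.20-fold. A gene was called at an adjusted p under 0.01 in the quasi-likelihood test of edgeR, with Benjamini-Hochberg adjustment over all 14012 genes. Thus 5 of 9 members were called higher, where 23.6% of all genes were, and 1 of 9 was called lower, where 21.1% were. The same 5 members had every knockout library above every control library, a pattern met by 29% of all genes, and Trap1 had every knockout library below, as did 24.4%. The median log2 fold change was 0.47 over the 9 members and 0.065 over all genes. Since so many genes differed, a call for a single member is no rarity in this muscle, and the sizes below are given against that background.

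Levels are given as CPM, the counts of a gene relative to all counts of its library, with library sizes scaled by TMM, a factor that corrects for RNA composition. The libraries held 16017565 to 18813042 counts in control mice and 16424608 to 20361144 in knockout mice, and their TMM factors did not overlap, at 0.747 to 0.844 against 1.19 to 1.33. Dividing by library totals alone shifted the median log2 difference of all genes to 0.73 and placed all 9 members higher in the knockouts, so each direction below is relative to the bulk of genes. A summed level of 8 myofibre genes, which define the tissue, was 65350 to 92878 CPM in knockout libraries against 184138 to 233425 CPM in control libraries. Of the 8, 5 were called lower, led in level by Myh4 (103899 CPM in control and 20582 CPM in knockout mice) and Acta1 (44672 and 15463 CPM), while Des (log2 fold change 0.82) and Myh1 (1.15) were called higher and Myh2 did not pass the test. Summed marker levels were also lower in the knockouts for endothelial cells (167 to 187 against 233 to 344 CPM) and fibroblasts (469 to 706 against 985 to 1683 CPM). All 4 endothelial markers were called lower. Of 5 fibroblast markers 3 were called lower, Col1a1 (log2 fold change -1.92), Col1a2 (-1.61) and Dcn (-0.52). Pdgfra (-0.15) and Lum (0.42) did not pass the test. The sum of the 2 satellite cell markers was higher (6.13 to 7.75 against 3.07 to 4.87 CPM), with Myf5 called and Pax7 not, as was that of the 2 of 3 neutrophil markers measured (15.3 to 36.9 against 0.252 to 2.59 CPM), with S100a8 called and S100a9 not. These genes were named after their values were seen. Summed marker levels of macrophages, adipocytes, erythroid cells, Schwann cells and smooth muscle overlapped between the groups, and no marker measured was at 0 in every library. Within these, 1 of 5 macrophage markers, Cd68, was called higher (log2 fold change 2.62) and 1 of 2 smooth muscle markers, Myh11, lower (-1.02). The part of these shifts in the results below was not tested, and in whole muscle fewer cells of a type cannot be told apart from less RNA per cell.

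**Figure D1:**
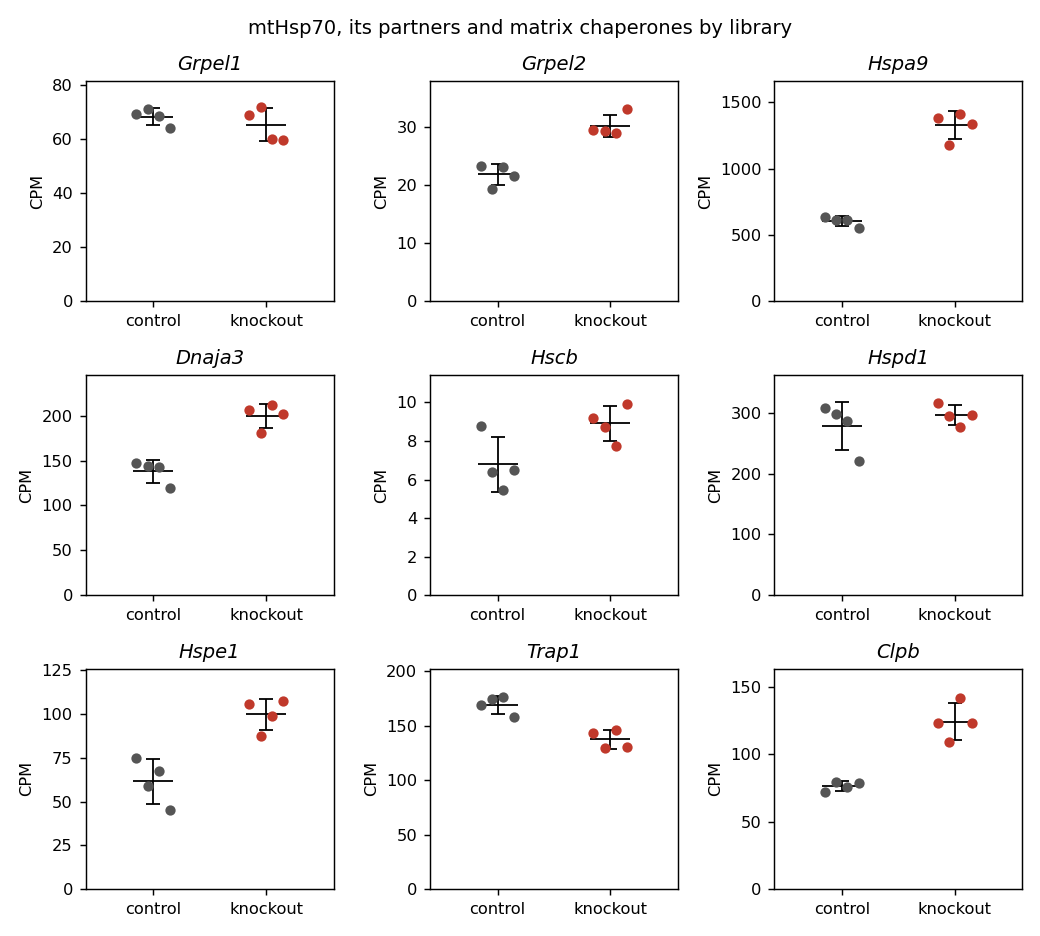
CPM on TMM-scaled libraries (vertical axes, each from 0) of the 9 members in the 4 control and 4 knockout libraries, with points for libraries and black marks for the mean ± SD. The groups separate upwards for Grpel2, Hspa9, Dnaja3, Hspe1 and Clpb and downwards for Trap1 on this scale (with library totals alone, Trap1 is higher in the knockouts), and overlap for Grpel1, Hscb and Hspd1.

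Grpel1 (Entrez Gene 17713) was examined first as the targeted gene. It lies on the plus strand at chr5:36465185-36474077 of GRCm38. Its level was 69.6, 71.2, 68.8 and 64.1 CPM in control replicates 1 to 4 and 69.1, 71.9, 60.3 and 59.9 CPM in knockout replicates 1 to 4. Knockout replicates 1 and 2 lay among or above the controls and replicates 3 and 4 below all of them, so the groups overlapped. The log2 difference was -0.07 (standard error 0.08), with an interval of 2 standard errors on either side that ran from -0.22 to 0.09, and an adjusted p of 0.487 in edgeR's test with Benjamini-Hochberg adjustment.

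That count could not check the deletion. At the protein level, the paper reported less GRPEL1 in the QF of Grpel1skm-/- mice, by immunoblot and by immunostaining. The study's drawing of the allele places the loxP sites on either side of exon 2. In the GENCODE M21 annotation, Grpel1 has 4 exons of 3528 bases in all, and exon 2, at chr5:36469438-36469600, holds 163 of them, or 4.62%. All 163 are coding, and 163 is not a multiple of 3, so a transcript that skips exon 2 changes its reading frame. The last exon, with most of the 3′ UTR, holds 3025 bases or 85.7% of the exon sequence, and lies outside the deleted part. A transcript without exon 2, if present, would therefore still be counted over nearly all of its length. Whether such a transcript was present, and how much of it, was not tested, since the counts are for the whole gene. The end of Grpel1 also overlaps Tada2b, a gene of the opposite strand that encodes a transcriptional adaptor, by 408 bases. Whether the counting used strand is not stated, and without it reads in the overlap could go to either gene or be left out of both. Tada2b stood at 21.2 CPM in the controls and 22.2 CPM in the knockouts (log2 fold change 0.07, adjusted p = 0.487 in edgeR's test with Benjamini-Hochberg adjustment).

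Grpel2 (Entrez Gene 17714, chr18:61712424-61726331, minus strand) encodes the other mitochondrial exchange factor. Its level was 23.3, 19.4, 23.2 and 21.6 CPM in control libraries and 29.5, 29.3, 28.98 and 33.0 CPM in knockout libraries. Each knockout library exceeded each control library, and the mean rose from 21.9 ± 1.82 to 30.2 ± 1.90 CPM (SD, n = 4 each), or 1.38-fold. The log2 difference was 0.47 (standard error 0.08, adjusted p = 7.4e-04 by edgeR with Benjamini-Hochberg adjustment). An exact two-sided permutation test over the libraries gave p = 0.0286, the smallest that 70 assignments of 4 against 4 allow.

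Levels of different genes are compared per kilobase of exon, again from CPM. On that scale Grpel2 made up 20.9% ± 1.69 of the transcripts of the exchange factors in the controls and 27.7% ± 2.73 in the knockouts, where Grpel1 stands for the count of the whole gene, with or without exon 2. Per library, the ratio of Grpel2 to Grpel1 was 0.276, 0.225, 0.278 and 0.278 in control libraries and 0.352, 0.336, 0.396 and 0.455 in knockout libraries. No control library reached the lowest knockout library, and Grpel1 remained the more abundant transcript in all 8. The mean log2 ratio differed by 0.54 (exact permutation p = 0.0286, and 0.0286 after Benjamini-Hochberg adjustment over the 8 ratios computed).

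Hspa9 (Entrez Gene 15526, chr18:34937414-34954351, minus strand), mtHsp70 itself, was the most abundant member in both groups. Its level was 637, 612, 616 and 550 CPM in control libraries and 1383, 1179, 1412 and 1339 CPM in knockout libraries. The lowest knockout library, replicate 2, lay far above the highest control library. The mean rose from 604 ± 37.8 to 1328 ± 104 CPM, with a log2 difference of 1.14 (standard error 0.09, adjusted p = 4.0e-06 by edgeR with Benjamini-Hochberg adjustment), which exceeded that of 89.9% of all genes. These values rested on 7890 to 9352 counts per control library and 25744 to 34201 per knockout library, so counting error was small beside the spread between mice.

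The rise of Hspa9 was not matched by its exchange factors. Per kilobase, the libraries held 9.68 ± 0.312 Hspa9 transcripts for each Grpel1 transcript in the controls and 22.5 ± 3.41 in the knockouts. Counting Grpel1 and Grpel2 together, there were 7.66 ± 0.217 in the controls and 16.2 ± 2.06 in the knockouts (exact permutation p = 0.0286 for each). Grpel1 per Hspa9 was 0.0995, 0.106, 0.102 and 0.106 in control libraries and 0.0456, 0.0556, 0.0389 and 0.0408 in knockout libraries, a difference of -1.21 on the log2 scale. The rise of Grpel2 thus left the sum of the exchange factor transcripts per Hspa9 transcript well below the control range. The ratios do not depend on how libraries are scaled, since both genes come from the same library.

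Dnaja3 (Entrez Gene 83945, chr16:4684070-4707695, plus strand), also known as Tid1, is a J-domain partner of mtHsp70 in the matrix. Its level was 147, 143, 143 and 119 CPM in control libraries and 206, 180, 211 and 202 CPM in knockout libraries. Control replicate 4 was low, and the lowest knockout library lay above every control library. The mean rose from 138 ± 12.8 to 200.05 ± 13.6 CPM, or 1.45-fold (log2 fold change 0.53, standard error 0.09, adjusted p = 4.4e-04 by edgeR with Benjamini-Hochberg adjustment). Dnaja3 rose by less than Hspa9, and the ratio of Dnaja3 to Hspa9 was lower in every knockout library than in any control library, with means of 0.173 and 0.263 (exact permutation p = 0.0286). In the knockouts this ratio was nearly constant, at 0.171, 0.176, 0.172 and 0.174, although the level of either gene varied more.

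Hscb (Entrez Gene 100900, chr5:110829070-110839777, minus strand) encodes the J-domain protein that brings mtHsp70 to the scaffold on which iron-sulphur clusters are built. It was a rare transcript, with 76 to 109 counts per control library and 188 to 250 per knockout library. Its level was 8.81, 6.42, 5.44 and 6.49 CPM in control libraries and 9.22, 8.75, 7.76 and 9.94 CPM in knockout libraries. Control replicate 1 lay above 2 of the knockout libraries, so the groups overlapped. The log2 difference was 0.40 (standard error 0.15, interval of 2 standard errors from 0.09 to 0.70, adjusted p = 0.0450 by edgeR with Benjamini-Hochberg adjustment), and without control replicate 1 it was 0.54 with an adjusted p of 0.0064. Hscb per Hspa9 separated the groups, at a mean of 0.0420 in the controls and 0.0254 in the knockouts (exact permutation p = 0.0286).

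**Figure D2:**
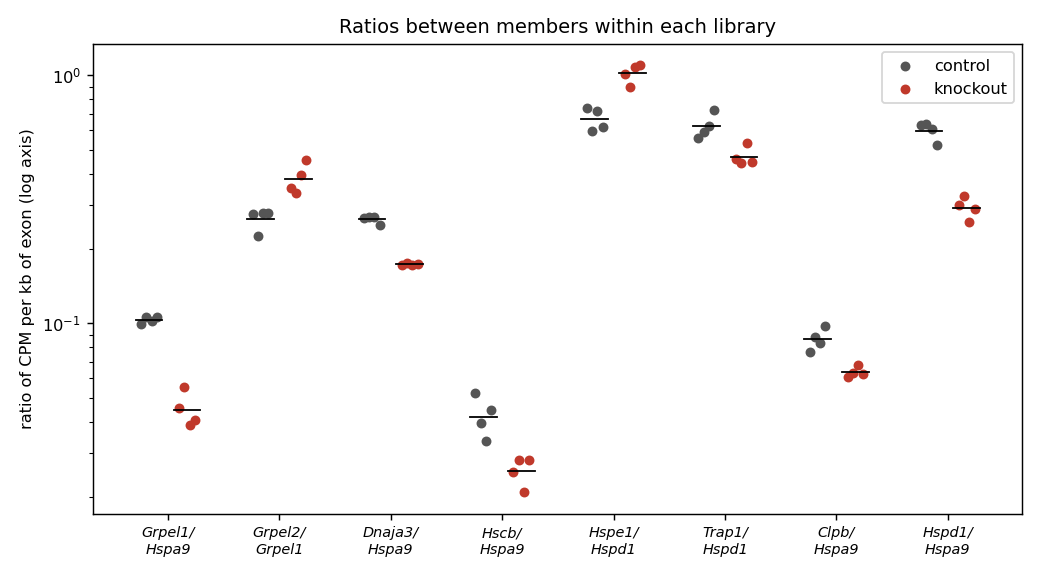
Ratios between members, taken per kilobase of exon within each library and shown on a log axis, with points for the 4 control and 4 knockout libraries and black bars for the geometric mean. All 8 ratios separate the groups, and Grpel1 per Hspa9 shows the largest shift, of -1.21 on the log2 scale. The ratios to Hspa9 share its rise (log2 fold change 1.14), so they are not separate results. No share over other gene pairs was computed.

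Hspd1 and Hspe1 encode the chaperonin and its lid, which work as a complex. The genes lie head to head on chromosome 1, with 215 bases between them. Hspd1 (Entrez Gene 15510, chr1:55077834-55087932) runs on the minus strand and Hspe1 (Entrez Gene 15528, chr1:55088148-55091317) on the plus strand, so the bases between them, with the bases just inside each gene, serve as the promoter region of both. This window is shown because Hspe1 passed the test and Hspd1 did not. The sequence is that of the Hspe1 strand from RefSeq on GRCm38.p6, at chr1:55087898-55088197, and covers 250 bases before the Hspe1 start and 50 after it. The capitals mark matches to the motifs named in the next paragraph.
Hspe1 promoter: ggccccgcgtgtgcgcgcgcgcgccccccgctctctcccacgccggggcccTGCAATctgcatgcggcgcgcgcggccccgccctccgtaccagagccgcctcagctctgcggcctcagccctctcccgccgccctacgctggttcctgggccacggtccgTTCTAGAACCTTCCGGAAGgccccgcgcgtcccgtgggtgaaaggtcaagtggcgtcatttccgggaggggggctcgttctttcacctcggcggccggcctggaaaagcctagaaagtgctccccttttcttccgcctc

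The 300 bases, of which 71.0% are G or C, hold a run of 4 alternating heat shock element units, the inverted GAA and TTC triplets that HSF factors bind, starting 89 bases before the Hspe1 start. In letters these are matches to TTCNNGAA at 89 and 79 bases and to GAANNTTC at 84 bases before the start, each overlapping the next. Of 32851 mouse promoter windows of the same length, 8 (0.0244%) hold such a run of 4 units and 198 (0.603%) a run of at least 3. Both counts include the overlapping windows of Hspe1 and Hspd1 themselves. TTCNNGAA alone is met in 8.52% and GAANNTTC in 7.86% of the windows. The same run overlaps matches on either strand to CCGGAAG, the core bound by ETS factors (8.86% of windows), and TGCAAT, the core of the element bound by CHOP, lies 199 bases before the Hspe1 start (8.40% of windows). An Hspd1 window on the other strand, at chr1:55087883-55088182, overlaps this one and holds the same matches, with TGCAAT 22 bases before that start. These are matches of letters on both strands, not measured sites.

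Hspe1 was measured at 74.6, 58.9, 67.7 and 45.1 CPM in control libraries and 106, 87.7, 98.8 and 107 CPM in knockout libraries. The lowest knockout library, replicate 2, still exceeded all controls. The mean rose from 61.6 ± 12.7 to 99.9 ± 8.96 CPM, or 1.62-fold (log2 fold change 0.70, standard error 0.14, adjusted p = 0.0018 by edgeR with Benjamini-Hochberg adjustment).

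Hspd1 was measured at 308, 298, 287 and 221 CPM in control libraries and 317, 296, 277 and 297 CPM in knockout libraries. Apart from control replicate 4, which was low, libraries of both groups lay within the same narrow range. The log2 difference was 0.09 (standard error 0.11, interval of 2 standard errors from -0.12 to 0.30, adjusted p = 0.478 by edgeR with Benjamini-Hochberg adjustment), so a rise of the size seen in Hspe1 lay outside the interval. Without control replicate 4 it was -0.0049 (adjusted p = 0.961).

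The difference between the paired genes was tested directly. Hspe1 per Hspd1, per kilobase, was 0.736, 0.599, 0.716 and 0.620 in control libraries and 1.01, 0.900, 1.08 and 1.10 in knockout libraries. Every knockout library exceeded every control library, with a difference of 0.62 on the log2 scale (exact permutation p = 0.0286). Lid and barrel transcripts were thus near parity in knockout muscle, with the lid transcript the less abundant in each control library. Both genes have processed copies elsewhere in the genome. Of 75-base windows of the longest coding transcript, 33.7% for Hspd1 and 29.1% for Hspe1 also occur in other annotated genes. As the authors excluded reads that map to several places, those stretches could be missing from the counts, which makes the level of each gene, and the ratio between them, uncertain. The part of these copies in the difference between groups was not tested.

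Clpb (Entrez Gene 20480, chr7:101663768-101790168, plus strand), also known as Skd3, is an ATP-driven protein that dissolves aggregated proteins, and is usually placed in the space between the mitochondrial membranes and not in the matrix. Its promoter is shown as an example without a match to any of the 6 motifs searched. These were those above with TGATGNAA, the core of the C/EBP-ATF response element (3.97% of windows), and CCAAT (37.4% of windows). The promoter of Trap1, which was called lower, held none of them either. The share of windows with none of the 6 was not computed, and the part of any motif in a change was not tested. As it holds no match, this RefSeq window of the plus strand, at chr7:101663501-101663800, has no capitals.
Clpb promoter: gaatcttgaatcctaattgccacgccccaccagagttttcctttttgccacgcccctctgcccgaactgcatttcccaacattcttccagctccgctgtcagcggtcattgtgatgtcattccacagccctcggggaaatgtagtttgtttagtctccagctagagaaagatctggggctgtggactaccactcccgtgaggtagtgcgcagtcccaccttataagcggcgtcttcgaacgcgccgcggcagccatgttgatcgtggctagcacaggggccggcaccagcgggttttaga

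Clpb was measured at 71.9, 79.7, 75.9 and 79.1 CPM in control libraries and 124, 109, 142 and 123 CPM in knockout libraries. The controls lay close together, and the lowest knockout library was well above them. The mean rose from 76.7 ± 3.58 to 124 ± 13.5 CPM, or 1.62-fold (log2 fold change 0.70, standard error 0.09, adjusted p = 6.7e-05 by edgeR with Benjamini-Hochberg adjustment). Clpb per Hspa9 was lower in the knockouts (exact permutation p = 0.0286), at a mean ratio of 0.0861 in the controls and 0.0634 in the knockouts.

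Trap1 (Entrez Gene 68015, chr16:4039977-4077810, minus strand) encodes the HSP90 of the mitochondrial matrix. Its level was 169, 174, 176 and 158 CPM in control libraries and 143, 129, 146 and 131 CPM in knockout libraries. The lowest control library lay above the highest knockout library, though by a small margin. The mean fell from 169 ± 8.17 to 137 ± 8.64 CPM, with a log2 difference of -0.30 (standard error 0.07, adjusted p = 0.0041 by edgeR with Benjamini-Hochberg adjustment), whereas with library totals alone it was 0.37, or -0.37 relative to the median of all genes on that scale. The call was lost without control replicate 2 (-0.29, adjusted p = 0.0143), without control replicate 3 (-0.28, adjusted p = 0.0135) and without knockout replicate 4 (-0.30, adjusted p = 0.0134). Trap1 per Hspd1, which needs no scaling, was lower in every knockout library, at a mean of 0.470 against 0.622 (exact permutation p = 0.0286). The margin was small, with the highest knockout library at 0.535 and the lowest control library at 0.557. This ratio places Trap1 relative to Hspd1 only, and the copies of Hspd1 make its level, and so the ratio, uncertain. Dnase1, a gene of the opposite strand that overlaps Trap1 by 48 bases, stood at 2.76 CPM in the controls and 1.08 CPM in the knockouts, a level far below that of Trap1.

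Among the other promoters, that of Dnaja3 held CCAAT 134 bases and CCGGAAG 2 bases before the start, that of Grpel1 held CCAAT 128 bases and CCGGAAG 204 bases before it, both on the opposite strand, and that of Trap1 held none of the 6 motifs. A further Hspd1 window, at chr1:55088194-55088493, held CCAAT on the opposite strand just after its start, and no other of the 6 motifs. Promoters of 6 of the 9 members were matched in RefSeq by symbol, and those of Hspa9, Grpel2 and Hscb were not matched.

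**Figure D3:**
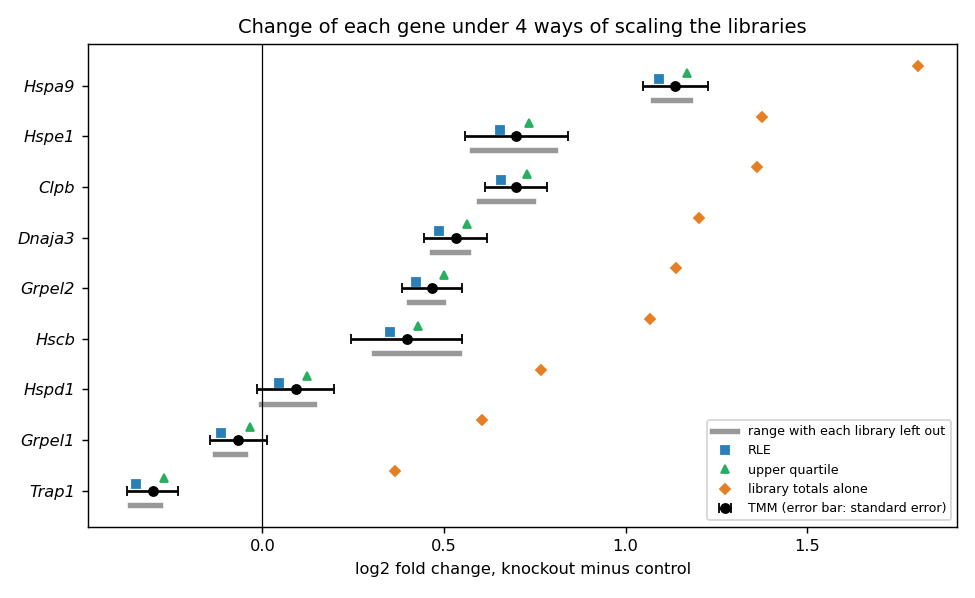
Log2 fold change, knockout over control, of each member (horizontal axis) under 4 ways of scaling the libraries, with the standard error drawn for the TMM values and a grey bar for the range when each library is left out in turn. Hspa9 lies highest under each of the 4, TMM, RLE and upper-quartile values lie close together, and with library totals alone all 9 lie to the right, where Trap1 and Grpel1 change sign.

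The order of levels changed between the groups. Per kilobase, the mean levels in the controls ran from Hspa9 (198 CPM per kilobase) through Hspd1 (119), Hspe1 (80.2), Trap1 (73.8), Dnaja3 (52.3), Grpel1 (20.5), Clpb (17.1) and Hscb (8.44) to Grpel2 (5.40). Hspe1 overlapped both of its neighbours in this order, Hspd1 and Trap1, and the other neighbours did not overlap. In the knockouts the levels ran from Hspa9 (437 CPM per kilobase) through Hspe1 (130.1), Hspd1 (127), Dnaja3 (75.5), Trap1 (59.8), Clpb (27.7), Grpel1 (19.6) and Hscb (11.1) to Grpel2 (7.46), with an overlap only between Hspe1 and Hspd1. Dnaja3 and Trap1 thus changed places, as did Clpb and Grpel1, each time without overlap in either group.

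Control replicate 4 was the lowest control library for 6 of the 9 members, and knockout replicate 2 the lowest knockout library for 5 of 9. The lowest library was not counted over all genes, so this cannot be read as particular to the members. As a description of likeness over the 8 libraries, in which the groups differ, the genes closest to Hspa9 in log2 CPM were Gadd45a (Pearson r 0.998), a stress-induced growth arrest gene, Nme2 (0.998), a nucleoside diphosphate kinase, and Mrpl24 (0.998), a mitochondrial ribosomal protein, and 1365 genes exceeded 0.95. Closest to Grpel1 were Plin3 (0.982), a lipid droplet coat protein, Zc4h2 (0.957) and Tyw3 (0.951), and no other gene exceeded 0.95.

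The other genes of import, folding and quality control were taken from 10 lists with 73 genes, of which 72 were measured. Of these 23 were called higher and 19 lower, where 23.6% and 21.1% of all genes were, and 30 did not pass the test, with a median log2 fold change of 0.03 beside 0.065 over all genes. With library totals alone 55 were called higher and 3 lower, and 12 of the 19 genes called lower had a positive value, so that the falls below are relative to other genes. All adjusted p-values in the next paragraphs are from edgeR with Benjamini-Hochberg adjustment over all genes.

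Relative to other genes, no gene of the import machinery around mtHsp70 was called higher, whereas with library totals alone 4 of 5 import motor partners and all 6 genes of the TIM23 channel were, and none lower. On TMM-scaled libraries, of 5 partners in the import motor none was called higher and 1 lower (median 0.03), which was Dnajc19, a J-domain protein at the channel (24.9 ± 2.67 against 38.5 ± 4.51 CPM, log2 fold change -0.63, adjusted p = 5.3e-04, but 0.04 with library totals alone). That count of 1 was 2 with RLE factors and with DESeq2. Of 6 genes of the TIM23 channel none was called higher and 2 lower (median -0.19), Timm23 (-0.38, adjusted p = 0.0019) and Timm17b (-0.29, adjusted p = 0.0075), and both were positive with library totals alone (0.30 and 0.38). The count of 2 for the channel dropped to 1 without control replicate 1, 2 or 3, without knockout replicate 2 or 4, and with the replicate number as a block. Of 3 matrix peptidases that trim imported proteins, 2 were called lower (0 with library totals alone, and 1 then higher), Mipep (log2 fold change -0.79, adjusted p = 3.0e-05) and Pmpca (-0.58, adjusted p = 8.9e-05, but 0.08 with library totals alone).

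Proteases were divided. Of 8 genes of mitochondrial proteolysis 4 were called higher and 3 lower (median 0.18), and with library totals alone 6 higher and 0 lower. Lonp1, the ATP-driven protease that clears misfolded matrix proteins, rose from 150.0 ± 2.04 to 301 ± 44.4 CPM (log2 fold change 1.004, adjusted p = 2.3e-05), a size close to that of Hspa9. Oma1, a stress-activated protease of the inner membrane, fell from 31.8 ± 2.74 to 17.2 ± 1.66 CPM (-0.89, adjusted p = 2.6e-05). Of 3 other mitochondrial folding factors 1 was called lower, Ppif, or cyclophilin D, a prolyl isomerase (-0.47, adjusted p = 0.0026, but 0.21 with library totals alone).

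Of 12 measured genes of iron-sulphur cluster assembly, which Hscb serves, 2 were called higher and 5 lower (median -0.34), and with library totals alone 6 higher and 1 lower. Isca1, a late-acting assembly factor, fell from 257 ± 13.2 to 113 ± 5.92 CPM (log2 fold change -1.19, adjusted p = 7.0e-07), and Nfu1, which passes clusters to target enzymes, rose from 40.7 ± 3.21 to 89.0 ± 6.43 CPM (1.13, adjusted p = 2.0e-06).

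The cytosolic and ER relatives of mtHsp70 did not move together. Of 10 genes of the HSP70 and HSP90 families 5 were called higher and 3 lower (median 0.31), and with library totals alone 7 higher and 2 lower. The count of 3 lower was also 2 without control replicate 1, 2 or 3 and without knockout replicate 1 or 4. The largest falls were in the heat-inducible HSP70 genes Hspa1a, from 31.7 ± 10.9 to 3.09 ± 1.16 CPM (log2 fold change -3.36, adjusted p = 1.8e-05), and Hspa1b, from 18.3 ± 7.02 to 2.99 ± 1.58 CPM (-2.62, adjusted p = 3.9e-04). These are near-identical copies. As reads that map to several places were excluded, those shared by both could be missing from the counts, which makes their levels uncertain. Of 10 J-domain and exchange factors of those compartments 1 was called higher and 2 lower (median -0.13), counts that changed to 2 higher with upper-quartile factors, to 4 lower with DESeq2 and to 8 higher and 0 lower with library totals alone. Hsph1, a cytosolic exchange factor, fell from 229 ± 53.5 to 107 ± 8.75 CPM (-1.10, adjusted p = 2.2e-04), and Hyou1, its counterpart in the ER, rose from 40.5 ± 2.95 to 83.2 ± 3.33 CPM (1.04, adjusted p = 1.6e-06). Of 8 subunits of the cytosolic chaperonin, a relative in function of Hspd1, 5 were called higher and none lower (median 0.38), led by Cct2 (0.67, adjusted p = 6.7e-05) and Cct3 (0.59, adjusted p = 3.5e-04).

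Of 7 transcription factors of stress responses 6 were called higher and none lower (median 1.26). Ddit3, which encodes CHOP, rose from 10.5 ± 0.327 to 64.8 ± 13.9 CPM (log2 fold change 2.62, adjusted p = 5.9e-07), and Atf5 rose from 58.5 ± 7.96 to 304 ± 32.4 CPM (2.38, adjusted p = 3.2e-07). No member reached the value of Ddit3 or Atf5, with Hspa9 at 1.14 the nearest.

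**Figure D4:**
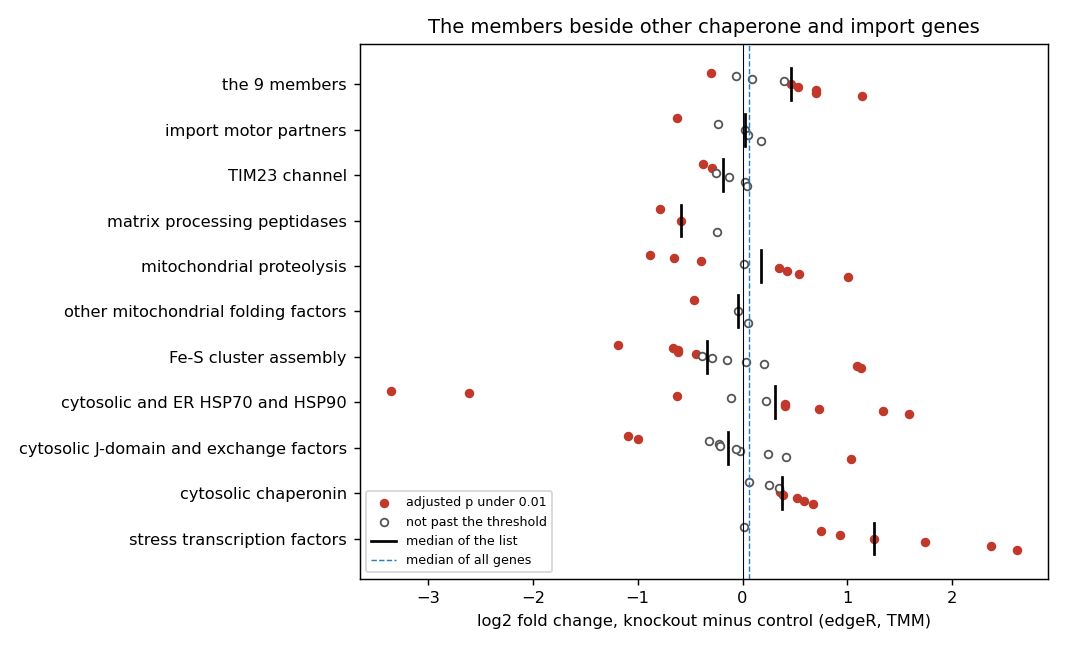
Log2 fold change, knockout over control on TMM-scaled libraries, of each gene of the members and of the 10 lists, with filled points past the threshold, black bars for list medians and a dashed line for the median of all genes (0.065). By median the stress transcription factors lie furthest to the right (1.26) and the matrix processing peptidases furthest to the left (-0.58), and with library totals alone 12 of the 19 listed genes called lower have a positive value.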

How the data were processed

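RNA from the QF of 4 knockout and 4 control mice, each sample a separate mouse by its label, was captured by polyadenylation and sequenced as read pairs from directional libraries. The deposited raw counts were obtained by the authors from reads demultiplexed with bcl2fastq 2.20.0.422, trimmed with cutadapt, aligned to GRCm38 by STAR 2.5.4b and assigned to exons by Rsubread, without duplicate or multimapping pairs, and genes with few reads in total were left out by them. The deposited FPKM values, which the authors derived from counts and exon widths, were used only as an alternative input to the ratios. Columns holding the authors' DESeq2 1.32.0 comparison (fold changes and p-values) were not used. A count of 0 allows up to 3 counts, which equal 0.119 to 0.242 CPM per library, a limit for counting error only.

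From the counts, all 14012 genes were tested with edgeR 4.0.16 (R 4.3.3, limma 3.58.1) by the quasi-likelihood test with TMM factors and group as its sole term, and p-values were adjusted by Benjamini-Hochberg with a threshold of 0.01. The procedure was tested on simulated data with 200 changed genes. All simulated libraries had the composition of the controls, so that test was no check of the scaling. Values are mean ± SD of CPM over n = 4 mice, log2 CPM had a prior count of 2, and single values and 8 ratios were compared by exact two-sided permutation of libraries. The members and lists were chosen with earlier results of these data known. Named were all members, at most 2 genes per list with the largest change past the threshold, the 3 genes most correlated with Hspa9 and with Grpel1, and genes overlapping a member. Exons, shared 75-base windows and promoters came from GENCODE M21 and RefSeq tables on GRCm38. Alternatives were RLE, upper-quartile and total scaling, the 20 most abundant genes left out, filterByExpr, DESeq2 1.42.0, an adjusted p under 0.05, the replicate number as a block and each library left out.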

Additional observations from a re-analysis of the deposited data

Results flagged for a closer look

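In 34 groups of 4 libraries (the level of each member and each ratio, in each group), 3 had a library at the end of the range that stood apart from the others, where chance gives about 1 group in 20. Knockout replicate 4 was high for Grpel2, at 33.0 CPM, with a gap to its neighbour of 0.866 of the range. Control replicate 4 was low for Dnaja3, at 119 CPM, with a gap of 0.849 of the range. Control replicate 2 was low for the ratio of Grpel2 to Grpel1, at 0.225, with a gap of 0.957 of the range.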

How the results depend on the processing

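Grpel2, Hspa9, Dnaja3, Hspe1 and Clpb stayed higher and past the threshold in all 15 alternatives. With library totals alone 9 members were called higher and 0 lower, as were 55 and 3 of the other listed genes, 8498 and 873 of all genes. Grpel1 was then 0.61 (adjusted p = 1.7e-04 by edgeR), Trap1 0.37 (1.4e-04), Hspd1 0.77 (5.4e-05) and Hscb 1.07 (2.5e-04), which relative to the median of all genes on that scale (0.73) were -0.13, -0.37, 0.03 and 0.33. Leaving out each library gave 0 to 1 members called lower, the 0 arising for Trap1 without control replicate 2 or 3 or knockout replicate 4, and 5 to 6 called higher. The range of the log2 fold change was -0.0049 to 0.14 for Hspd1, 0.31 to 0.54 for Hscb, -0.37 to -0.28 for Trap1 and 1.07 to 1.18 for Hspa9. At an adjusted p under 0.05, 6 members were called higher, Hscb being added. All 8 ratios moved by less than 1 SD when a library was left out, with ranges of -1.31 to -1.14 for Grpel1 per Hspa9 and 0.57 to 0.68 for Hspe1 per Hspd1. The deposited FPKM values and the replicate block could not move the mean difference of a ratio. They use the same counts and libraries, and so are no check of it. All genes called numbered 6265, and 5196 to 5867 with a library left out, 6731 with DESeq2 and 6123 with the replicate number as a block. That replicate block left 5 members higher and 1 lower and changed no member's call. The labels give the numbers no shared origin. Deviations of same-numbered libraries correlated at 0.118, 0.00314, 0.422 and 0.138, and those of differently numbered ones at -0.295 to 0.112. The numbers 1, 3 and 4 correlated best with their own number and 2 did not, so the libraries were not treated as pairs, and a pairing is not excluded. With 4 pairs the exact sign-flip test of a ratio could not go below 0.125. Hscb had the fewest counts, at 76 to 250 per library, and 4 mice per group limit the exact tests to 0.0286.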
